A study of Homo sapiens with 36 samples.

Results

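The genes described here are 34 genes of glycolysis and of the response to low oxygen, chosen by name from the 19014 genes of the deposited table of normalized counts. All 34 were found there. The rule picks them by name and uses no measured value, but the list was drawn up with earlier results of these data known. They comprise 4 transporters of glucose and lactate, 9 upper and 7 lower glycolytic genes, 2 regulators of phosphofructokinase, 2 lactate dehydrogenases, 2 hypoxia-inducible factor alpha subunits and 8 genes known to be induced by hypoxia.

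The cells were H446, a long-established line from a human small-cell lung carcinoma, which the labels place in the SCLC-N subtype (the subtype known for high NEUROD1). Clones 3, 10 and 13 carried a non-targeting guide RNA and served as controls, and clones 12, 15 and 2-1 were NEUROD1 knockouts made with a single guide RNA, NEUROD1 being a neural transcription factor. Each of the 6 clones received the solvent DMSO or 1 µM JQ1, an inhibitor of BET bromodomain proteins that bind acetylated chromatin, for 24 h. The labels give 3 biological replicates per clone and treatment, and 35 of the 36 libraries were used. Each genotype thus rests on 3 clones, and differences between clones and effects of the knockout are separated only by those 3. All cells grew in RPMI with 10% heat-inactivated serum, and the labels name no low-oxygen treatment.

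Glycolysis splits glucose into pyruvate and yields ATP without oxygen, and lactate dehydrogenase then turns pyruvate into lactate, which monocarboxylate transporters carry out of the cell. HIF1A and EPAS1 (also called HIF-2 alpha) encode the alpha subunits that are degraded when oxygen is present, after hydroxylation by the EGLN enzymes, and that accumulate when it is scarce and bind short hypoxia response elements near their targets. Regulation of the alpha subunits is therefore known to act largely on the protein, which RNA does not show. Tumour cells often keep glycolysis high in the presence of oxygen.

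The 35 libraries held 13282337 to 18890506 whole reads each. NEUROD1 averaged 5998 ± 580 normalized counts in the control clones and 1.87 ± 2.93 in the knockout clones with DMSO (mean ± SD of clone means, n = 3 clones each, as throughout unless stated). HEXIM1, a gene known to rise under BET inhibition, went from 459 ± 29.3 to 2138 ± 170 with JQ1 in the control clones and from 716 ± 218 to 2738 ± 594 in the knockout clones. The summed level of 5 neuroendocrine markers (NEUROD1, INSM1, CHGA, SYP and NCAM1) ranged from 18611 to 27622 in the control libraries and from 1876 to 4806 in the knockout libraries, where NCAM1 made up most of it. The part of this lower neuroendocrine level in the differences between genotypes was not tested. Replicate 1 of knockout clone 12 with JQ1 was left out. Its summed level of 8 markers of lung, blood and stroma cells was 86776, against 117 to 2246 in the other libraries, where the genotypes overlapped. In those libraries the collagen gene COL1A1 made up most of the sum. Its group medians were 199.5 to 920.8, beside 210.1 to 938.3 for the sum. In bulk RNA, fewer cells that express a gene and less of its RNA per cell cannot be told apart.

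Per unit of transcript length, the glycolytic enzymes were the most abundant of the 34 in the control clones with DMSO. GAPDH, which oxidizes glyceraldehyde phosphate, stood at 3793 ± 867 FPKM (fragments per kilobase of transcript and per total fragments, which allows comparison between genes), and ENO1, the ubiquitous enolase, at 2814 ± 467. LDHB at 1066 ± 244, TPI1 at 1012 ± 158, LDHA at 812 ± 27.1 and ALDOA at 761 ± 29.9 followed. LDHB and TPI1 differed by less than their SD. The hexokinases and phosphofructokinases were far lower, with HK1 at 74.4 ± 18.7, PFKP at 73.8 ± 12.8, PFKM at 53.9 ± 14.7, PFKL at 38.8 ± 3.72 and HK2 at 27.4 ± 4.43 FPKM. HIF1A stood at 83.8 ± 6.2 FPKM. EPAS1 at 0.356 ± 0.211, the lactate exporter SLC16A3 at 0.366 ± 0.203 and CA9 at 0.5 ± 0.355 FPKM were the lowest of the 34.

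The promoters of 5 members on which the results turn are shown, namely 3 that were higher in the knockout clones (CA9, EPAS1, P4HA1) and a pair of abundant enzymes that rose with JQ1 (GAPDH, PKM). Each is the 250 bases before a start site in RefSeq (GRCh38.p14), read in the direction of the gene. Capitals mark the letters ACGTG and GCGTG, the core of the hypoxia response element, on either strand. The windows are chr9:35673678-35673927 (plus strand) for CA9, chr2:46297157-46297406 (plus) for EPAS1, chr10:73096867-73097116 (minus) for P4HA1, chr12:6535014-6535263 (plus) for GAPDH and chr15:72231191-72231440 (minus) for PKM. Those of EPAS1, GAPDH and PKM lie wholly inside the annotated genes (chr2:46293667-46386703, chr12:6533927-6538374 and chr15:72199029-72231822). Those of CA9 and P4HA1 overlap theirs in part (chr9:35673856-35681159 and chr10:73007217-73096974), and the marked match of each lies in the overlap. All 5 windows precede start sites within the annotated gene, which need not be its main ones.
CA9: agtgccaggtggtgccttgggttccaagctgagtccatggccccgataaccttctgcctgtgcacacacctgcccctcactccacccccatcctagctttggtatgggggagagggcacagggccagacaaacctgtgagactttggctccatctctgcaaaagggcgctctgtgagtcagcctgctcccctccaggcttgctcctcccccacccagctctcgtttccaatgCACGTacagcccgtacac
EPAS1: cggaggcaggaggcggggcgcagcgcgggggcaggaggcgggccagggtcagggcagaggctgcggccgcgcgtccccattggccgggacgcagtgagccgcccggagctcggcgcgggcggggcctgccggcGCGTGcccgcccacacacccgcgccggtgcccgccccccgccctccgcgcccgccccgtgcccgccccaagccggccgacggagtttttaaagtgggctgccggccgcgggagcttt
P4HA1: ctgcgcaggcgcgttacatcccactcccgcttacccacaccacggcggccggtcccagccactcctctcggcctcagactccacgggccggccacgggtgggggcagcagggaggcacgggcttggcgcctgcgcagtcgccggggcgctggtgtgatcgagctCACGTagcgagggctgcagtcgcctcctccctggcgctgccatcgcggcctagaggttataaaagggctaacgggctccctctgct
GAPDH: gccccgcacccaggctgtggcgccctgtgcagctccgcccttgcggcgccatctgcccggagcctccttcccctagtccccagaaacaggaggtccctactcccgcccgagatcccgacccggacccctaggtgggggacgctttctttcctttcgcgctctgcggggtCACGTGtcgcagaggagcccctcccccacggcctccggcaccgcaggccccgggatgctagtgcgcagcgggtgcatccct
PKM: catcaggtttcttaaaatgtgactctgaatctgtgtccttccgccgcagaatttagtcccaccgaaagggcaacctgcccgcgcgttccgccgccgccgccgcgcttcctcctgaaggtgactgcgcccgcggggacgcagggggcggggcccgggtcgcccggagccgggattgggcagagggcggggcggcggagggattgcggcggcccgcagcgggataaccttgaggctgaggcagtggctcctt

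The match in CA9 begins 18 bases before the start site, in P4HA1 86 bases and in EPAS1 117 bases before it. In GAPDH the 2 matches overlap at 81 and 80 bases before the start and together spell the E-box CACGTG. The PKM window holds no match, which says only that these letters are not in that window. RefSeq gave 56 start sites for 29 of the 34 members, and SLC16A1, SLC2A3, VEGFA, NDRG1 and BNIP3L were not in the table. ACGTG or GCGTG on either strand was found in 32 of the 56 windows (57.1%), against 43.2% of 35116 windows of the same length over all genes. For ACGTG alone the shares were 33.9% and 18.5%, and for GCGTG alone 33.9% and 32.2%. The E-box CACGTG, which contains ACGTG, was in 12.5% of the member windows and 6.34% of all windows, and CAGATG, an E-box of the kind that NEUROD1 binds, in 7.14% and 12.2%. Start sites of 1 gene share sequence, so the windows are not independent, and a match of letters is not evidence that a factor binds.

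The first comparison, knockout against control clones with DMSO, asks how these genes stand after the loss of NEUROD1 in untreated cells. EPAS1 and CA9 went from near-absent to clearly expressed in every knockout clone, NDRG1 and P4HA1 were higher, and the enzymes HK1 and ENO2 were lower. The other members did not pass an adjusted p of 0.05 (limma on clone means, Benjamini-Hochberg over 15711 genes). The 6 calls are 17.6% of the members, beside 12.5% of all genes tested, and the 4 higher and 2 lower members stand beside 6.29% and 6.26% of all genes. The median log2 fold change of the members was 0.19, and that of all genes was 0.01. The calls of EPAS1 and CA9 held without any single clone, whereas NDRG1 and P4HA1 lost theirs without 4 of the 6 clones and HK1 and ENO2 without 5. All 4 also lost it when limma was run without its trend (adjusted p = 0.0582 for NDRG1).

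**Figure D1:**
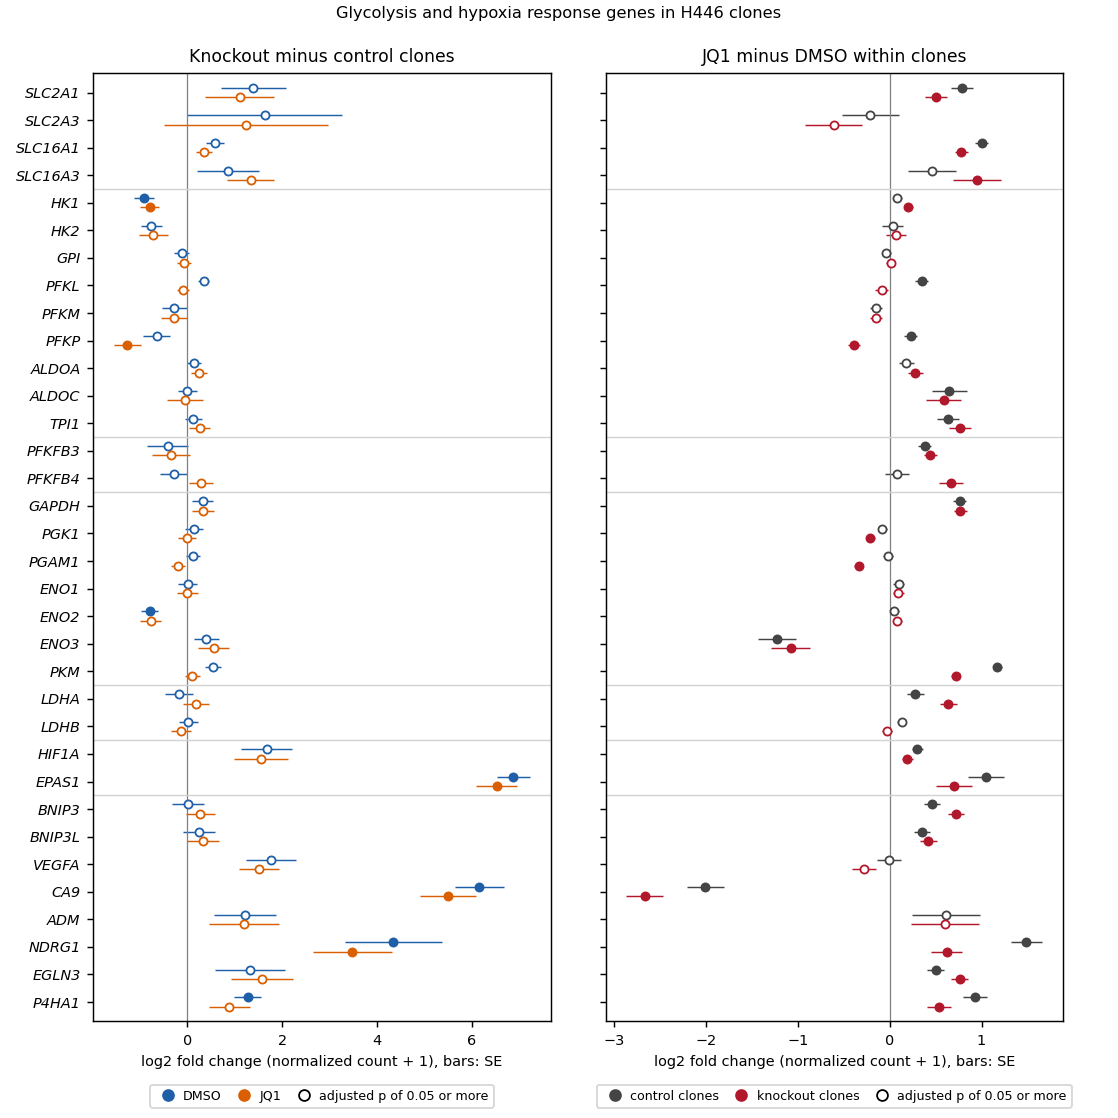
Log2 fold changes with their SE for the 34 genes, ordered by role and divided by grey lines. Left, knockout minus control clones with DMSO (blue) and JQ1 (orange), with 3 clones per genotype; right, JQ1 minus DMSO in control clones (grey) and knockout clones (red). Filled points passed an adjusted p of 0.05. EPAS1, CA9 and NDRG1 lie far to the right on the left panel, and most points of the right panel lie above 0, with CA9 and ENO3 at the left.

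EPAS1 (ENSG00000116016, chr2:46293667-46386703 on GRCh38, plus strand) averaged 9.13, 5.82 and 11.8 normalized counts in control clones 3, 10 and 13 with DMSO and 902, 894 and 1575 in knockout clones 12, 15 and 2-1. The highest of the 9 control libraries held 13.8 and the lowest of the 9 knockout libraries 840, so the genotypes did not overlap. The log2 fold change was 6.87 (SE 0.35, adjusted p = 0.000128 by limma). With JQ1 the clone means were 11.7, 15.1 and 34.5 in the controls and 1264, 1768 and 2414 in the knockouts, a log2 fold change of 6.52 (SE 0.43, adjusted p = 0.000184). In FPKM with an offset of 0.1 both differences were 5.31 on the log2 scale, so the size depends on the scale, while the call held.

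HIF1A (chr14:61695513-61748259, plus strand), the other alpha subunit, was abundant in all clones and did not pass the test between genotypes. Its clone means with DMSO were 4503, 4062 and 3545 in the controls, 20226 in knockout clone 12, 20891 in clone 15 and 4939 in clone 2-1. Clones 12 and 15 were thus several times above every control clone, while clone 2-1 was close to control clone 3. The log2 fold change over 3 clones against 3 was 1.67 (SE 0.54, 95% interval 0.38 to 2.96, adjusted p = 0.0979), and without clone 2-1 it was 2.36 (adjusted p = 0.00084). DESeq2 on summed reads called it with all clones (1.92, adjusted p = 0.000903). EPAS1 was a small share of the summed HIF alpha FPKM in each control clone with DMSO, at 0.571%, 0.153% and 0.513%, and larger in clones 12 and 15, at 2.82% and 3.09%. In clone 2-1, where HIF1A was low, the share was 19.1%. The exact permutation test of 3 clones against 3, two-sided, cannot give less than p = 0.1, which this share reached (adjusted p = 0.467 over 14 shares).

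CA9 (ENSG00000107159, chr9:35673856-35681159, plus strand), a carbonic anhydrase on the cell surface that helps to control pH and a classic target of HIF1A, averaged 3.85, 15.5 and 5.43 normalized counts in the control clones with DMSO. In knockout clones 12, 15 and 2-1 it averaged 727, 393 and 630. Every knockout library (lowest 370) was above every control library (highest 16). The log2 fold change was 6.16 (SE 0.52, adjusted p = 0.000848 by limma). In the controls only 3 of 18 libraries reached 10, so CA9 was tested because of its level in the knockout libraries, and its fold change depends on the added count: with 5 in place of 1 it was 5.53 with DMSO and 3.85 with JQ1.

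NDRG1, a hypoxia- and stress-induced gene, was higher in all knockout clones but to very different degrees. Its clone means with DMSO were 10.4, 24.4 and 40.2 in the controls and 2070, 308 and 140 in clones 12, 15 and 2-1. The lowest knockout library (115) was above the highest control library (44.9). The log2 fold change was 4.34 (SE 1.02, adjusted p = 0.0371 by limma). Without clone 12 the fold change was 3.24 (adjusted p = 0.0357), and in FPKM it was 3.79 (adjusted p = 0.0545).

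P4HA1 (chr10:73007217-73096974, minus strand), a prolyl hydroxylase subunit for collagen, averaged 566, 559 and 439 in the control clones and 1866, 910 and 1147 in the knockout clones with DMSO. The groups did not overlap, and the log2 fold change was 1.27 (SE 0.28, adjusted p = 0.0299 by limma). With JQ1 the genotypes overlapped (control clone 3 at 1229, knockout clone 15 at 1016) and the change was 0.88 (SE 0.43, adjusted p = 0.243).

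**Figure D2:**
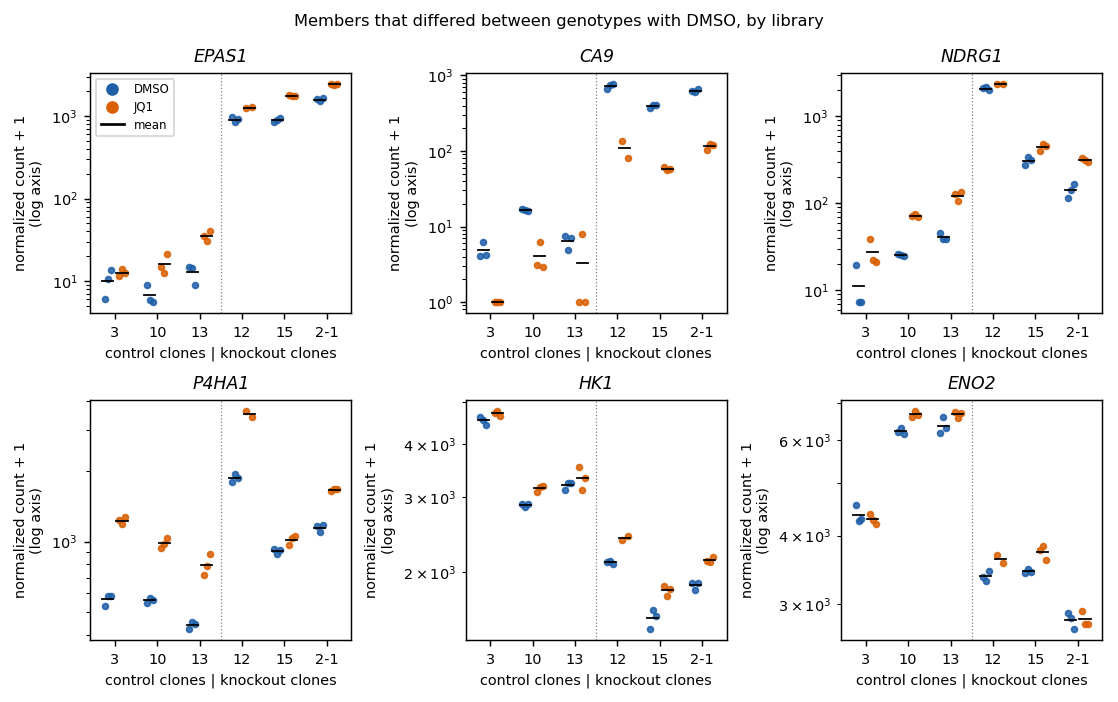
Normalized counts plus 1 (log axis) in every library for the 6 genes that differed between genotypes with DMSO; points are libraries, bars are clone means, blue DMSO and orange JQ1. EPAS1, CA9 and NDRG1 were higher in every knockout clone, HK1 and ENO2 lower. CA9 fell with JQ1 in all 6 clones, at counts near the floor in the control clones.

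Of the other hypoxia-induced genes, VEGFA, the angiogenic growth factor, was higher in every knockout library than in every control library with DMSO but missed the threshold. Its clone means were 306, 203 and 286 in the controls against 1836, 932 and 409 in clones 12, 15 and 2-1 (log2 fold change 1.76, SE 0.52, adjusted p = 0.0745). Without clone 2-1 it was 2.32 (adjusted p = 0.0123), and DESeq2 called it with all clones (2, adjusted p = 0.000856). EGLN3, a HIF prolyl hydroxylase, averaged 75.6 in control clone 3, 543 in clone 10 and 384 in clone 13, against 882, 692 and 389 in the knockouts (1.31, SE 0.74, adjusted p = 0.31). ADM, which encodes the vasodilator adrenomedullin, was low in all groups (19.4 ± 13.9 and 40 ± 20.4). The mitophagy receptors BNIP3 and BNIP3L had log2 fold changes of 0.01 (95% interval -0.77 to 0.78) and 0.24 (-0.55 to 1.04).

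Among the transporters none of the 4 passed in limma (1 at an unadjusted p under 0.05), beside 12.5% of all genes tested. Of the 4, edgeR called none and DESeq2 2, where of all 15711 genes they called 1828 and 3284. With only 4 genes these counts cannot be told apart from the shares over all genes. SLC2A1, the basal glucose transporter GLUT1, was set apart by knockout clone 12, which averaged 8260 with DMSO, while clones 15 and 2-1 averaged 1560 and 1357 and the controls 831, 1404 and 835. Its log2 fold change was 1.39 with an interval from -0.23 to 3 (adjusted p = 0.243). SLC2A3, the transporter GLUT3, was at 0 to 1.02 in the 6 libraries of control clone 3 and at 70 or more in those of clones 10 and 13. SLC16A1, the lactate transporter MCT1, was 3410, 3914 and 3162 in the controls and 6098, 5630 and 4026 in the knockouts (0.57, SE 0.19, adjusted p = 0.101). SLC16A3, the export-type transporter MCT4, did not exceed 26.4 in any library with DMSO.

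**Figure D3:**
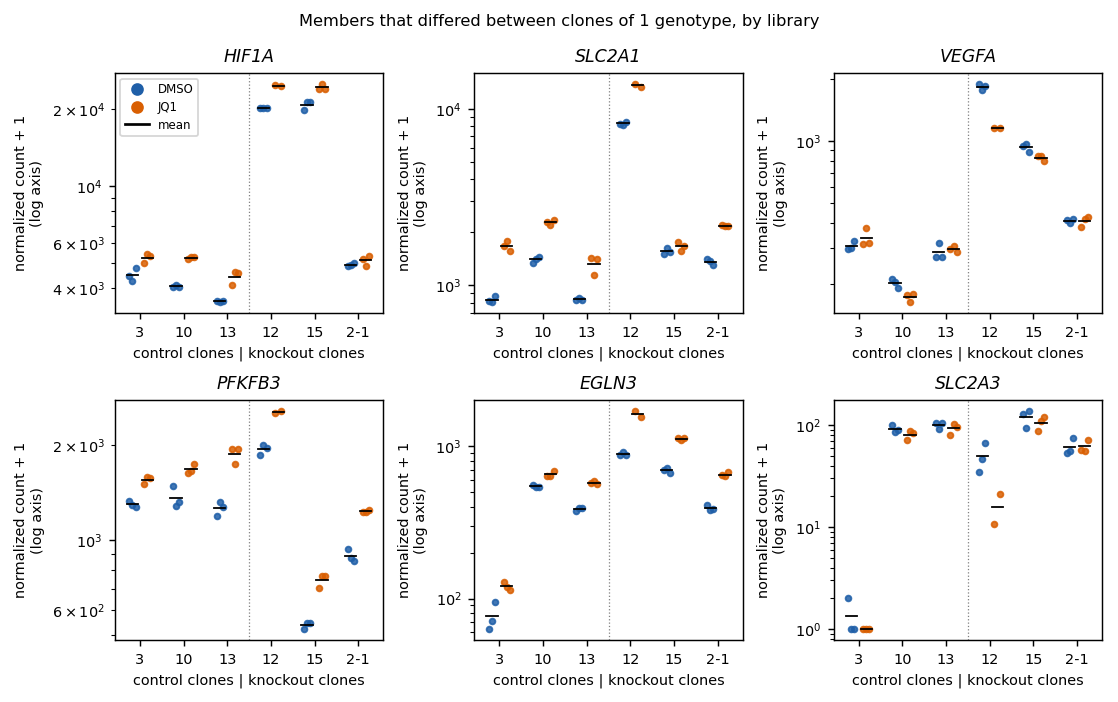
Normalized counts plus 1 (log axis) in every library for 6 genes that differed between clones of 1 genotype, drawn as above. HIF1A was high in knockout clones 12 and 15 only, SLC2A1 in clone 12, and SLC2A3 was near 0 in control clone 3.

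In upper glycolysis HK1 was lower in the knockout clones. HK1 (chr10:69269984-69401884, plus strand), the housekeeping hexokinase, averaged 4535, 2876 and 3198 in the controls and 2108, 1558 and 1863 in the knockouts with DMSO. No library overlapped between genotypes, the log2 fold change was -0.92 (SE 0.21, adjusted p = 0.0333 by limma), and with JQ1 it was -0.8 (SE 0.2, adjusted p = 0.0442). HK2, the hexokinase often raised in tumours, was 1915, 2617 and 2358 in the controls against 1801, 1176 and 1145 (-0.76, SE 0.22, adjusted p = 0.0705).

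The platelet-type phosphofructokinase PFKP differed between genotypes with JQ1. Its clone means with JQ1 were 2870, 3368 and 2808 in the controls and 1782, 816 and 1319 in the knockouts, which did not overlap (-1.27, SE 0.28, adjusted p = 0.0293). With DMSO the values were 2599, 3119 and 2051 against 2228, 1103 and 1753 (-0.65, SE 0.29, adjusted p = 0.198). PFKP took 44.2% ± 5.65 of the summed phosphofructokinase FPKM in the control clones and 33.4% ± 10.2 in the knockouts with DMSO. The liver-type PFKL took 23.5% ± 4.16 and 34.7% ± 3.05, a difference of 11.2 percentage points (two-sided exact permutation p = 0.1, the smallest the design allows, adjusted p = 0.467 over 14 shares).

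The fructose bisphosphate regulators PFKFB3 and PFKFB4 set the level of the main activator of phosphofructokinase. PFKFB3 was even among the controls with DMSO (1297, 1357 and 1258) and uneven among the knockouts (1937, 538 and 888), with a log2 fold change of -0.42 (95% interval -1.44 to 0.6). PFKFB4 had -0.29 (-0.99 to 0.4).

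In lower glycolysis the neuronal enolase ENO2 (chr12:6913745-6923698, plus strand), a marker of neuroendocrine tumours, averaged 4365, 6217 and 6353 in the controls and 3366, 3438 and 2801 in the knockouts with DMSO. The lowest control library held 4251 and the highest knockout library 3478. The log2 fold change was -0.8 (SE 0.18, adjusted p = 0.0349 by limma) with DMSO and -0.78 (SE 0.22, adjusted p = 0.0647) with JQ1. ENO1 in contrast averaged 68631 ± 11083 and 69328 ± 12015, a log2 fold change of 0.01 with an interval from -0.47 to 0.49. PKM, the pyruvate kinase, was 14695, 18798 and 17970 in the controls and 28846, 24884 and 21450 in the knockouts with DMSO, without overlap (0.54, SE 0.17, adjusted p = 0.0861). LDHA and LDHB had -0.18 (interval -0.9 to 0.55) and 0.02 (-0.45 to 0.5). LDHA was 15107 to 16028 in the control clone means and 21191, 14303 and 8742 in clones 12, 15 and 2-1.

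With JQ1, 3 members were higher in the knockout clones (EPAS1, CA9 and NDRG1) and 2 lower (HK1 and PFKP), which is 14.7% of the members beside 11.2% of all genes tested. By direction the background was 5.66% higher and 5.57% lower. CA9 with JQ1 averaged 0, 3.08 and 2.29 in the controls and 107, 56.8 and 115 in the knockouts (log2 fold change 5.49, SE 0.59, adjusted p = 0.0017). NDRG1 averaged 26.6, 71.3 and 122 in the controls and 2329, 443 and 312 in the knockouts (3.48, SE 0.84, adjusted p = 0.0402). EPAS1 and CA9 held without any single clone, HK1 lost its call without each of the 6 clones in turn, NDRG1 without any but clone 2-1, and PFKP without any control clone or clone 2-1. NDRG1 also missed the threshold without a filter (adjusted p = 0.0565) and without the trend (adjusted p = 0.0715).

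The knockout clones were spread widely for several members. The SD between clone means on the log2 scale was larger in the knockouts for 21 of the 34 members with DMSO, with medians of 0.42 and 0.24, while replicate libraries of 1 clone had a median SD of 0.05. The spread was not computed over all genes, so a wider spread in the knockouts is not shown to be particular to the members. The largest SD among the knockouts with DMSO was that of NDRG1 (2), followed by SLC2A1 (1.45) and HIF1A (1.19), and among the controls those of SLC2A3 (3.6) and EGLN3 (1.52).

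JQ1 was compared with DMSO within each clone, which asks how BET inhibition moved these genes in either genotype. Most members that changed rose, among them PKM, GAPDH, TPI1, SLC16A1, SLC2A1 and LDHA, while CA9 and the muscle enolase ENO3 fell. In the control clones CA9 fell from counts that were already near the floor. In the control clones 17 of 34 members rose and 2 fell by limma, and in the knockout clones 19 rose and 5 fell. The share of all genes tested was 25.3% higher and 27.4% lower in the control clones, and 26.3% and 30.2% in the knockout clones. Over both directions 55.9% and 70.6% of the members passed, beside 52.7% and 56.5% of all genes. The median log2 change of the members was 0.29 and 0.35, against -0.01 and -0.05 for all genes. Called higher in both genotypes were 15 members, 88.2% of the control calls and 78.9% of the knockout calls. The same overlap was not counted over all genes, so it is not shown to be particular to the members. In the controls LDHA lost its call without any single control clone, ALDOC and BNIP3L without clone 3 or 10, and PFKP without clone 13. In the knockouts calls were lost by HIF1A without clone 12 or 15, by EPAS1 without clone 15 or 2-1, by ALDOA and SLC16A3 without clone 12 or 2-1, by ALDOC without clone 15 and by NDRG1 without clone 2-1.

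PKM rose the most of the enzymes in the control clones. It went from 14695 to 33967 in clone 3, from 18798 to 42910 in clone 10 and from 17970 to 38532 in clone 13, a log2 change of 1.17 (SE 0.05, adjusted p = 7.48e-06 by limma). In knockout clones 12, 15 and 2-1 it went from 28846 to 45121, from 24884 to 41057 and from 21450 to 37350, a change of 0.72 (SE 0.05, adjusted p = 2.27e-05). The highest DMSO library lay below the lowest JQ1 library within each genotype.

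GAPDH rose to a like extent in both genotypes, from 67474 ± 15909 to 113714 ± 21614 in the controls (0.76, SE 0.07, adjusted p = 5.97e-05) and from 82761 ± 9540 to 142239 ± 29156 in the knockouts (0.77, SE 0.07, adjusted p = 5.19e-05). The difference between these responses was 0, with an interval from -0.22 to 0.23. TPI1, the triose phosphate isomerase, rose in every clone, by 0.63 (SE 0.12) and 0.77 (SE 0.12), and in clone 12 it went from 19062 to 41902. GAPDH is often used as a reference gene.

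ENO1, GPI and HK2 did not pass in either genotype. ENO1 changed by 0.1 (95% interval -0.03 to 0.22) in the controls and 0.09 (-0.04 to 0.22) in the knockouts, GPI by -0.04 (-0.16 to 0.08) and 0.01 (-0.1 to 0.13), and HK2 by 0.03 (-0.22 to 0.29) and 0.07 (-0.18 to 0.33). PGK1 and PGAM1, next to GAPDH in the pathway, fell in the knockout clones by 0.21 and 0.34 on the log2 scale (adjusted p = 0.00555 and 0.000606 by limma). HK1 rose by 0.2 (SE 0.05, adjusted p = 0.00605) in the knockouts, and PFKL and PFKP rose in the controls by 0.35 and 0.23 (adjusted p = 0.00255 and 0.0239). ALDOC, the brain-type aldolase, rose by 0.65 and 0.59, and ALDOA rose by 0.28 in the knockouts. ENO3 fell from 64.4 ± 10.9 to 28.1 ± 7.87 in the controls and from 85.5 ± 16.2 to 40.4 ± 4.52 in the knockouts (-1.23 and -1.08, adjusted p = 0.00131 and 0.0024).

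**Figure D4:**
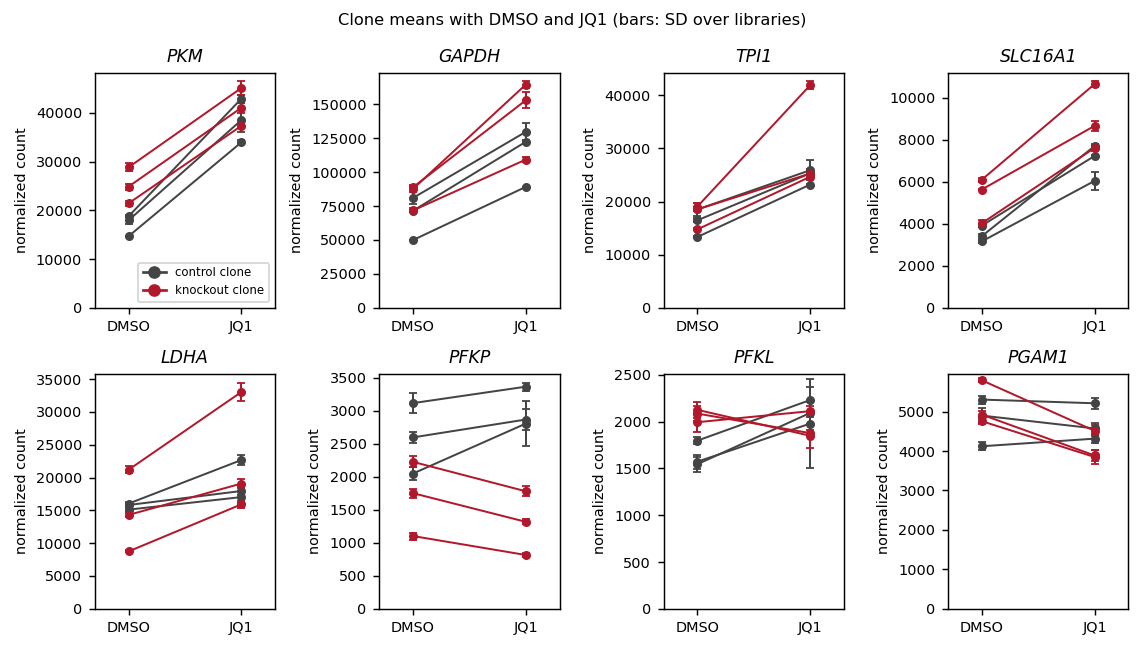
Mean normalized count of each clone with DMSO and JQ1 (error bars: SD over its libraries), control clones grey and knockout clones red, for 8 glycolytic genes. PKM, GAPDH, TPI1 and SLC16A1 rose in all 6 clones, and PFKP rose in the 3 control clones and fell in the 3 knockout clones.

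Among the transporters SLC16A1 rose from 3495 ± 383 to 6988 ± 855 in the control clones (1, SE 0.07, adjusted p = 2.68e-05) and from 5251 ± 1087 to 8971 ± 1542 in the knockout clones (0.78, SE 0.07, adjusted p = 6.45e-05). SLC2A1 rose by 0.79 (SE 0.12) and 0.5 (SE 0.12), with the smallest clone change, 0.1, in knockout clone 15. SLC16A3 rose in the knockouts from 13.5 ± 7.9 to 23.9 ± 10.4, at counts where a few reads matter. Of the regulators, PFKFB3 rose in both genotypes (0.38 and 0.44, the latter 0.26 in FPKM with an adjusted p of 0.0521), and PFKFB4 in the knockouts (0.67, SE 0.13, adjusted p = 0.00222).

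LDHA rose by 0.28 (SE 0.09, adjusted p = 0.0299) in the controls and 0.64 (SE 0.09, adjusted p = 0.000528) in the knockouts, where clone 2-1 went from 8742 to 15909. LDHB changed by 0.13 (0.01 to 0.25) and -0.03 (-0.15 to 0.08), and did not pass. The LDHA share of lactate dehydrogenase FPKM was higher with JQ1 in 6 of 6 clones, by 5.94 percentage points on average. In control clone 10 it went only from 39.3% to 39.5%, and in knockout clone 2-1 from 28.3% to 43.2%. The exact two-sided permutation p over 6 clones was 0.0312, the smallest this design allows, and 0.146 after adjustment over 14 shares, so it did not pass. None of the 42 tests of shares of related genes passed after adjustment. Those between genotypes could not, as 3 clones against 3 cannot give less than p = 0.1 in this permutation test. Those of JQ1 could pass only if most of the 14 shares reached 0.0312 at once. The lack of calls is therefore no result about the shares.

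**Figure D5:**
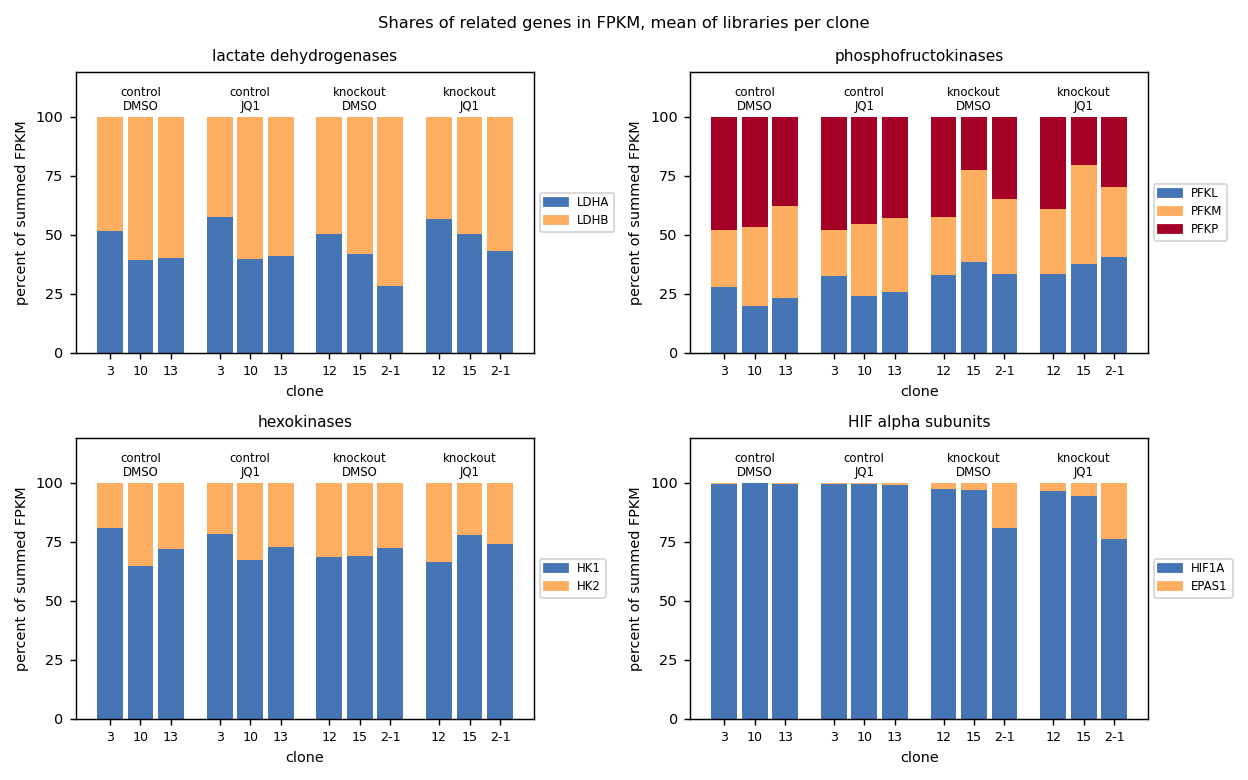
Share of each gene in the summed FPKM of its family, as the mean of the libraries of each clone, for lactate dehydrogenases, phosphofructokinases, hexokinases and HIF alpha subunits. LDHA took 39.3% to 51.7% in the control clones with DMSO, and EPAS1 reached 19.1% of the HIF alpha sum in knockout clone 2-1 with DMSO.

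The hypoxia genes moved in opposite directions with JQ1. CA9 fell from 727 to 107 in knockout clone 12, from 393 to 56.8 in clone 15 and from 630 to 115 in clone 2-1, a log2 change of -2.67 (SE 0.2, adjusted p = 2.37e-05 by limma). In the controls it fell from 3.85, 15.5 and 5.43 to 0, 3.08 and 2.29 (-2.01, SE 0.2, adjusted p = 8.55e-05), a size that depends on the added count (-0.94 with 5). The control values rest on 75 reads with DMSO and 16 with JQ1, in 9 libraries each. The test used a spread shared with the knockout clones, so the fall in the controls is weakly supported. EPAS1 rose by 1.05 (SE 0.2) and 0.7 (SE 0.2), NDRG1 by 1.49 (SE 0.17) and 0.62 (SE 0.17), P4HA1 by 0.93 and 0.54, EGLN3 by 0.5 and 0.76, BNIP3 by 0.46 and 0.72 and BNIP3L by 0.35 and 0.42, each called in both genotypes. HIF1A rose by 0.3 (SE 0.06) and 0.19 (SE 0.06). VEGFA changed by -0.01 (-0.3 to 0.28) and -0.28 (-0.57 to 0.01). In FPKM the rise of EPAS1 did not pass in either genotype, nor did those of HIF1A and NDRG1 in the knockouts.

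The response to JQ1 differed between genotypes for 4 members, all with a lower value in the knockout clones, which is 11.8% of the members beside 7.35% of all genes (3.58% lower). In the other direction limma called 0 members (2 at an unadjusted p under 0.05) where 3.76% of all genes were called, and edgeR and DESeq2 called 0. PFKP changed by 0.14, 0.11 and 0.45 in control clones 3, 10 and 13 and by -0.32, -0.43 and -0.41 in knockout clones 12, 15 and 2-1, a difference of -0.62 (SE 0.1, adjusted p = 0.0183). PKM changed by 1.21, 1.19 and 1.1 against 0.65, 0.72 and 0.8 (-0.44, SE 0.07, adjusted p = 0.019). PFKL changed by 0.31, 0.44 and 0.3 against -0.15, -0.2 and 0.08 (-0.44, SE 0.09, adjusted p = 0.0324). PGAM1 changed by -0.03, -0.1 and 0.07 against -0.36, -0.34 and -0.31 (-0.32, SE 0.07, adjusted p = 0.0361). For each of the 4 the changes of the 3 control clones lay above those of the 3 knockout clones. These are the values that the test used, so this is no separate support. All 4 lost the call without any single control clone or without knockout clone 15, without the expression trend in the prior variance, and with the left-out library included. In FPKM and without replicate 3, PFKL (adjusted p = 0.0557 and 0.0572) and PGAM1 (adjusted p = 0.059 and 0.054) also missed the threshold, as did PFKL without replicate 1 (-0.34, adjusted p = 0.116).

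Other genes of the pathways were taken from 4 lists that do not overlap the members. Of 30 other hypoxia-induced genes tested, 2 were higher and 2 lower in the knockouts with DMSO, which is 13.3% beside 12.5% of all genes. The collagen prolyl hydroxylase P4HA2 went the other way from P4HA1, with 4064 ± 1764 against 686 ± 350 (-2.6, SE 0.45, adjusted p = 0.013 by limma). With JQ1, 4 were higher and 2 lower (20% beside 11.2%). LOX, the collagen cross-linking lysyl oxidase, averaged 308 ± 23.8 against 1724 ± 725 with JQ1 (2.38, adjusted p = 0.00476). JQ1 itself raised 10 and lowered 6 of the 30 in the controls, and raised 9 and lowered 10 in the knockouts. These are 53.3% and 63.3% of the list, beside 52.7% and 56.5% of all genes, with LOX at -1.66 in the controls and BHLHE40, a HIF-induced repressor, at -1.54 in the knockouts. BHLHE40 fell from 327 ± 236 to 116 ± 94.9 there and responded differently between genotypes (-1.24, SE 0.17, adjusted p = 0.0122), 1 of 2 lower calls. Those 2 are 6.67% of the list, beside 7.35% of all genes (3.58% lower).

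Of 18 other genes of glycolysis and glucose transport tested, limma called 2 higher in the knockouts with DMSO (11.1% beside 12.5% of all genes) and edgeR 1. BSG, the chaperone of the lactate transporters, averaged 7662 ± 639 against 11585 ± 800 (0.6, SE 0.13, adjusted p = 0.0261), and the transporter SLC2A12 was higher by 2.17 (SE 0.52, adjusted p = 0.0412). With JQ1 limma called 0 of the 18 between genotypes (4 at an unadjusted p under 0.05), beside 11.2% of all genes, edgeR 0 and DESeq2 1. JQ1 raised 9 and lowered 2 in the controls, and raised 8 and lowered 5 in the knockouts (61.1% and 72.2% of the list, beside 52.7% and 56.5% of all genes). The difference in response was lower for 3, among them BSG (-0.42, SE 0.08, adjusted p = 0.0275), and higher for 0. This is 16.7% of the list, beside 7.35% of all genes (3.58% lower). Of 9 genes of gluconeogenesis and glycogen, PPP1R3C, a glycogen-targeting phosphatase subunit, was higher in the knockouts with DMSO (103.3 ± 5.74 against 1200 ± 708, 3.32, SE 0.46, adjusted p = 0.00634). JQ1 raised 5 of the 9 in the controls and 4 in the knockouts and lowered none, 55.6% and 44.4% beside 52.7% and 56.5% of all genes, with glycogen phosphorylase PYGB going from 2380 ± 312 to 5145 ± 415 in the controls (1.12, adjusted p = 1.82e-05). The genotypes differed in the response of 0 of the 9 by limma (4 at an unadjusted p under 0.05), 0 by edgeR and 1 by DESeq2. Of all genes limma called 7.35%.

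Of 16 genes that regulate HIF, limma, edgeR and DESeq2 each called 0 between genotypes with DMSO, and 0 passed even an unadjusted p under 0.05. By limma the share of all genes called was 12.5%. With JQ1 the HIF inhibitors CITED2 (0.78, SE 0.2, adjusted p = 0.0481) and HIF1AN (0.52, SE 0.13, adjusted p = 0.0446) were higher in the knockouts by limma. These 2 calls are 12.5% of the list, beside 11.2% of all genes. In the same comparison edgeR called 0 of the 16, and DESeq2 called 2 higher and 2 lower. JQ1 raised 7 and lowered 4 of the 16 in the controls, and raised 7 and lowered 5 in the knockouts (68.8% and 75% of the list, beside 52.7% and 56.5% of all genes). CITED2, which competes with HIF for the coactivator CREBBP, rose from 366 ± 56.8 to 815 ± 179 in the knockouts and from 343 ± 71.9 to 469 ± 39.3 in the controls, a difference in response of 0.67 (SE 0.16, adjusted p = 0.045). By limma the response differed for 4 of the 16, 3 higher and 1 lower, which is 25% beside 7.35% of all genes. For EGLN1, the main oxygen sensor, and HIF1AN the knockout response was higher by 0.46 (SE 0.08, adjusted p = 0.0239) and 0.35 (SE 0.08, adjusted p = 0.0373). For TCEB2, which encodes elongin B, the difference was -0.58 (SE 0.12, adjusted p = 0.0301), with 1042 ± 58.8 going to 1169 ± 64 in the controls and 1170 ± 128 to 884 ± 164 in the knockouts.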

How the data were processed

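Libraries were made with the TruSeq Stranded mRNA kit, according to the labels' protocols. The submitters' processing notes list cutadapt, STAR, RSEM and hg19, with no versions or settings. The deposited values were the authors' DESeq2-normalized counts of 19014 genes, a signal of reads divided by 1 size factor per library, and the authors' FPKM of 57820 genes. Whole reads were recovered from the normalized counts (100% of values within 1e-06 of a whole multiple). Where reads fit several near-identical copies, as for the processed pseudogenes of GAPDH, PGAM1, ENO1 or LDHA, the assignment can shift a value.

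The members and lists were chosen with earlier results of these data known. Groups came from the labels. The replicate was the clone, taken as the mean over its libraries. Nothing in the labels says that clones arose from separate editing experiments. The 15711 genes tested reached 10 normalized counts in 9 or more of the 35 libraries. All 34 members passed, SLC16A3 and CA9 only because of the knockout libraries. Values were log2(normalized count + 1), which understates changes of low genes, in limma 3.58.1 (R 4.3.3) with a trend: genotype on 3 against 3 clone means, JQ1 on clone differences with 1 spread over 6 clones, and their difference between genotypes. P-values were two-sided and Benjamini-Hochberg adjusted over all genes, with a threshold of 0.05. Shares of FPKM were compared by exact permutation. All 34 members were described, and from each other list up to 4 called genes per comparison with a mean of at least 50, largest change first. One gene that this rule names is not reported here. Positions are from GENCODE 29 (GRCh38), not the authors' build. Fits were tested on simulated data. Alternatives were pseudocounts of 0.5 and 5, no filter or one of 50, equal library totals, TMM, FPKM with an offset of 0.1, other priors, single libraries with and without a replicate block, edgeR 4.0.16, DESeq2 1.42.0, the left-out library, a spread per genotype, and leaving out each clone, replicate number or library.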

Additional observations from a re-analysis of the deposited data

Results flagged for a closer look

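The JQ1 response differed between genotypes by a test of the difference for PFKP (-0.62 on the log2 scale, knockout minus control clones), PKM (-0.44), PFKL (-0.44) and PGAM1 (-0.32). PFKP rose in 3 of 3 control clones and fell in 3 of 3 knockout clones, which are the values that the test used. All 4 calls were lost without any single control clone, without the trend and with the left-out library.

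The library that was left out, replicate 1 of knockout clone 12 with JQ1, held more than any of the 35 others for 7 members. These were VEGFA (4612 normalized counts), NDRG1 (3906), PFKFB3 (3353), EPAS1 (3175), SLC2A3 (1298), SLC16A3 (701.2) and ADM (342.7). For SLC2A3 the highest of the 35 was 136, and its 2 replicate libraries held 9.72 and 19.8. For 3 members, PGAM1, ENO1 and ENO2, the left-out library was below all 35 others. Against its own 2 replicates it was above for 12 members and below for 22. Its markers of lung, blood and stroma cells summed to 86776, and their part in these values was not tested.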

How the results depend on the processing

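No value past the threshold changed sign under any alternative run. Between genotypes with DMSO the 4 higher members were 2 without the trend, 9 by DESeq2 and 21 with single libraries as samples, with or without a replicate block, and the 2 lower were 0 without the trend and 9 with single libraries, with or without the block. With JQ1 the 3 higher were 5 by DESeq2 and 21 with single libraries, with or without the block; the 2 lower were 1 without a filter, 0 without the trend and 9 with single libraries, with or without the block. With JQ1 against DMSO, 2 members fell in the controls and 4 did with equal library totals or single libraries, with or without the block; the 5 that fell in the knockouts were 8 with single libraries, with or without the block. For the difference in response, 0 higher became 7 and 4 lower became 12 with single libraries, with or without the block, and the 4 lower were 0 without the trend and with the left-out library. Single libraries of a clone are not independent, so those counts rest on too small a spread. Calls over all genes were not counted with single libraries, without the trend, without a filter or with the left-out library. Nor were they counted with 1 clone, replicate number or library left out. Gains and losses of member calls in those settings are therefore not shown to be particular to the members.

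Leaving out 1 clone, replicate number or library gave 2 to 6 higher and 0 to 2 lower members between genotypes with DMSO, 2 to 5 and 0 to 2 with JQ1, 14 to 18 and 2 to 3 for JQ1 in controls, 15 to 20 and 5 to 7 in knockouts, and 0 to 1 and 0 to 5 for the difference in response. EPAS1 and CA9 held between genotypes in all of these. Without control clone 10 or 13, HK1, ENO2, NDRG1 and P4HA1 were lost with DMSO; without clone 3, HK1, NDRG1 and P4HA1; without knockout clone 12, ENO2; without clone 15, HK1, ENO2 and NDRG1; and without clone 2-1, HK1, ENO2 and P4HA1. With JQ1, HK1 was lost without each clone in turn, NDRG1 without any but clone 2-1, and PFKP without any control clone or clone 2-1. For the difference in response, PFKL and PGAM1 were also lost without knockout clone 12, PFKL without replicate 1 of control clone 13 with JQ1 or without all libraries numbered 1, and both in FPKM and without all libraries numbered 3. Without a filter HK1 and NDRG1 were lost with JQ1, and without the trend HK1, NDRG1 and PFKP. The rise of LDHA and PFKP in the controls was lost with equal totals, FPKM, no trend and the left-out library, and that of HIF1A in the knockouts with equal totals, FPKM, no trend, the left-out library and a spread per genotype. CA9 differed in response with a pseudocount of 5 (-1.68, adjusted p = 0.0107) and not with 1 (-0.66, adjusted p = 0.17). With equal totals the median JQ1 change of all genes was -0.08 in controls and -0.11 in knockouts. DESeq2 called 3284, 2908 and 1769 genes for genotype with DMSO, with JQ1 and the difference in response, against 1971, 1765 and 1154 by limma.

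Replicate numbers did not pair the samples: deviations of same-numbered libraries of 1 clone had a median correlation of 0.03 (17 pairs). Depth limits the members with few counts, among them CA9, EPAS1 and NDRG1 in the controls, SLC16A3, ADM, SLC2A3 and ENO3.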
